A study of Homo sapiens with 9 samples.

Results

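Across 5 ChIP-seq peak lists from 786-O and A498, both human lines of clear cell kidney cancer, 12 places of the genome were crowded with GFP antibody background. The places were chosen by the numbers of parental peaks: the genome was divided into bins of 1 Mb, and a bin was kept where the lists of parental 786-O and of parental A498 cells each held 10 or more. The sex chromosomes and the mitochondrial genome were not considered. The 12 bins lie on 10 chromosomes or contigs, out of 2551 bins with at least 1 peak in any list. They held 1375 of the 52875 deposited peaks.

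The libraries were GFP ChIP-seq of 786-O and of A498 cells with eGFP knocked in at ZNF395, MYC ChIP-seq of parental 786-O, and GFP ChIP-seq of parental 786-O and of parental A498, which carry no tag. ZNF395 is a zinc finger protein that acts as a transcription factor, and MYC is a transcription factor of growth genes. Tagging used a guide RNA plasmid and a donor plasmid delivered by electroporation into both lines, and the labels do not say whether a clone or a pool was used. All 4 GFP libraries used the same antibody, and, per the peak names, the MYC and parental 786-O peaks were called with 1 shared control while each other list had its own. With 1 library per group there was no replicate to check a difference against and no test across samples; the intervals given reflect counting error alone. The libraries titled A498 carry 786-O in their cell line field, and the library titled MYC names P300, a coactivator, in its target field. The names used here follow the titles.

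As background, human centromeres and the chromosome regions beside them are built from satellite DNA, short units repeated in tandem over long stretches. A reference assembly holds only part of these arrays, so reads from many copies can be placed on the few copies it shows. Such regions are known for excess signal in many short-read experiments, and peaks there are often set aside before binding sites are interpreted. Sequence and repeat content of the bins were not analysed here, so no bin is called satellite DNA. "Dense bins" means only that the bins are rich in parental peaks, and "tagged" stands for ZNF395-eGFP.

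The bins differed in a number that the choice did not use, that of MYC peaks. In 10 bins there were between 0 and 4 MYC peaks each, 12 in all. The other two held 15 and 58. This division was made after the counts had been seen. The 10 are called MYC-poor and the 2 MYC-rich.

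The MYC-poor bin of chromosome 4 from 49 to 50 Mb was the fullest. It held 49 peaks of tagged 786-O, 28 of tagged A498, 48 of parental 786-O, 92 of parental A498 and 1 of MYC. On chromosome 10 from 42 to 43 Mb the counts were 50 and 32 in the tagged lists, 51 and 67 in the parental lists, and 4 for MYC, each pair with 786-O before A498. In both bins the 786-O lists of tagged and parental cells had nearly as many peaks as each other, while tagged A498 had fewer than parental A498.

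Chromosome 16 from 46 to 47 Mb held 41 peaks in each tagged list, 38 in parental 786-O, 50 in parental A498 and 3 of MYC. Chromosome 2 had 3 bins. From 92 to 93 Mb it held 30 peaks of tagged 786-O, 26 of tagged A498, 29 of parental 786-O and 37 of parental A498. In both of these bins the 4 GFP lists had counts of similar size. The bin of chromosome 2 from 133 to 134 Mb held 25 peaks of tagged 786-O and 19 of tagged A498, against 14 of parental 786-O and 29 of parental A498, and 3 of MYC. From 89 to 90 Mb the same chromosome held 12 and 6 tagged peaks, against 15 and 19 parental peaks, in 786-O and A498. Neither the 92 Mb nor the 89 Mb bin held a MYC peak.

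An unplaced contig assigned to chromosome 9, gl000199, counted as 1 bin. It held 21 peaks of tagged 786-O, 20 of tagged A498, 21 of parental 786-O and 39 of parental A498, with none listed for MYC. Chromosome 8 from 43 to 44 Mb held the fewest tagged peaks, 6 in 786-O and 5 in A498, against 12 and 16 parental peaks. Chromosome 17 from 22 to 23 Mb held 8 and 13 tagged and 10 and 15 parental peaks, and chromosome 18 from 18 to 19 Mb held 10 and 7 tagged and 10 and 11 parental peaks. The bins of chromosomes 17 and 18 were just inside the limit of 10. Just outside it were chromosome 8 from 46 to 47 Mb, with 9 parental 786-O and 13 parental A498 peaks, chromosome 16 from 33 to 34 Mb with 9 and 24, and chromosome 19 from 27 to 28 Mb with 9 and 17. None of these 3 held a MYC peak.

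The MYC-rich bins had another pattern. Chromosome 11 from 65 to 66 Mb held 57 peaks of tagged 786-O and 20 of tagged A498, against 23 of parental 786-O and 13 of parental A498, and 58 of MYC. Chromosome 6 from 26 to 27 Mb held 53 and 15 tagged, 21 and 16 parental, and 15 MYC peaks. In both, tagged 786-O peaks outnumbered parental 786-O peaks by 2.48 times and 2.52 times, and parental A498 had no more peaks than parental 786-O, the reverse of all 10 MYC-poor bins. As background, this part of chromosome 6 carries a large cluster of histone genes, and this part of chromosome 11 the genes of the abundant nuclear RNAs NEAT1 and MALAT1. No peak was assigned to a gene, since no hg19 annotation was used here.

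**Figure D1:**
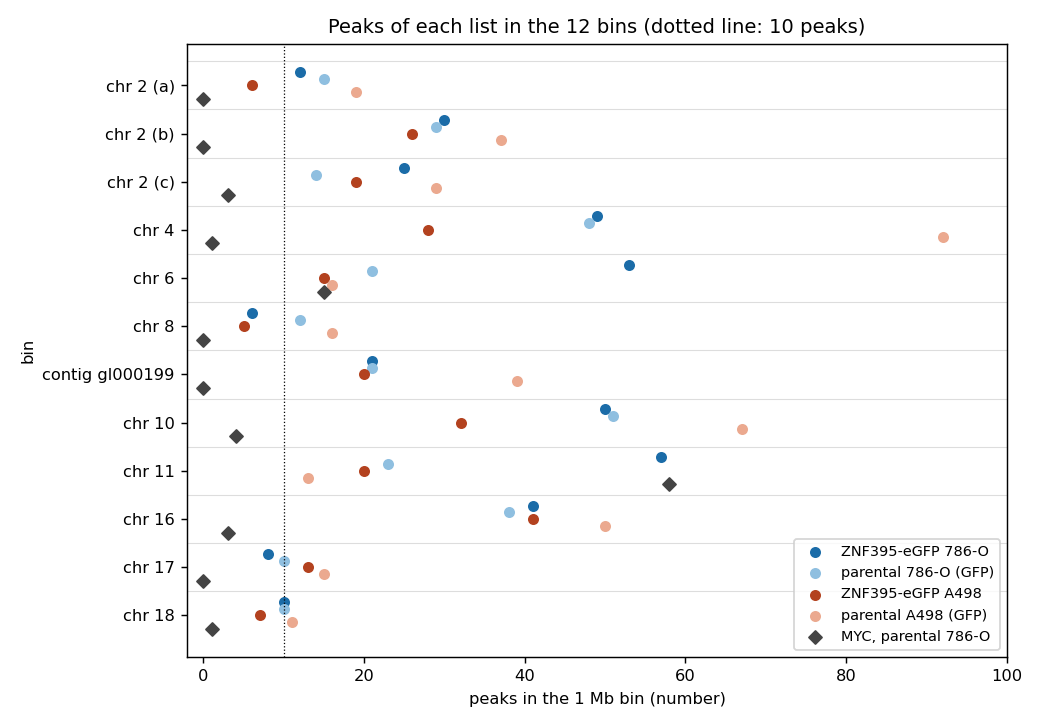
Number of peaks (x axis) in each of the 12 bins (rows; a, b and c are the 3 bins of chromosome 2 in order of position) for each of the 5 lists, 1 point per list. In the 10 MYC-poor bins the MYC points lie between 0 and 4 and the parental A498 points lie right of the parental 786-O points. On chromosome 11 MYC has 58 peaks.

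Relative to their length, the lists had very unequal parts in these bins. The dense bins held 1.81% (95% interval 1.63 to 2.00) of the tagged 786-O peaks, 3.01% (2.64 to 3.41) of the tagged A498 peaks and 0.421% (0.336 to 0.520) of the MYC peaks. They held 8.69% of the parental 786-O peaks and 25.8% of the parental A498 peaks, which describes the choice of the bins and is no finding. For comparison, the 12 bins are 0.470% of the bins with a peak. In the MYC-poor bins alone the shares were 1.26% of tagged 786-O, 2.55% of tagged A498 and 0.0594% (0.0307 to 0.104) of MYC peaks. Over all 12 bins, parental 786-O cells gave 292 peaks with the GFP antibody and 85 with the MYC antibody, with 1 control shared by both lists. The bins were chosen for many of the GFP peaks, and the MYC-poor ones for few MYC peaks, so these counts are a description.

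Tagged cells did not add peaks in the MYC-poor bins the way they did elsewhere. Tagged 786-O had 252 peaks there against 248 in parental 786-O, a ratio of 1.02, and tagged A498 had 197 against 375, a ratio of 0.525. In the rest of the series the same ratios were 6.41 in 786-O and 6.46 in A498. The MYC-rich bins lay between, with 2.50 in 786-O and 1.21 in A498. The depth of each library is unknown here, and its part in these ratios was not tested. The bins were chosen for many parental peaks, which by itself lowers the ratio inside them.

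Peaks filled only small stretches of the bins. When parental peaks of either line less than 20 kb apart were joined, and groups of 5 or more kept, the MYC-poor bins held 16 clusters of 2.45 to 144 kb, with a summed length of 587 kb. These clusters held 247 of the 248 parental 786-O peaks and 368 of the 375 parental A498 peaks there, as their construction favours. They also held 232 of the 252 tagged 786-O peaks (92.1%) and 165 of the 197 tagged A498 peaks (83.8%), which took no part in it, but only 2 of the 12 MYC peaks. The MYC-poor bins were set apart by their few MYC peaks, so the MYC count is a description. Peaks covered 12.2% of the cluster length in tagged 786-O, 9.28% in tagged A498, 10.1% in parental 786-O and 16.0% in parental A498. In the MYC-rich bins, clusters made in the same way held 45.5% of the tagged 786-O and 65.7% of the tagged A498 peaks.

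The tightest cluster with peaks of all 4 GFP lists in numbers above 5 was that of chromosome 18, from 18511084 to 18520322 (hg19), where 9.24 kb held 9 and 7 tagged and 10 and 11 parental peaks. On chromosome 10 the main cluster, from 42355480 to 42409366, held 28 peaks of tagged 786-O, 22 of tagged A498, 37 of parental 786-O and 50 of parental A498. The cluster of chromosome 16, from 46385868 to 46466994, held 36 and 31 tagged and 38 and 48 parental peaks, and that of chromosome 2 from 92269435 to 92325881 held 29 and 23 tagged and 29 and 36 parental peaks. All 4 GFP lists were thus present in numbers in each of these clusters.

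Chromosome 4 was divided. Its first cluster, from 49093367 to 49158563, held 36 peaks of tagged 786-O, 12 of tagged A498, 35 of parental 786-O and 63 of parental A498. The last one, from 49634624 to 49659721, held 11, 1, 11 and 19 in the same order. A cluster between them, from 49293775 to 49323543, was called almost only in A498, with 1 peak in tagged 786-O, 5 in tagged A498, none in parental 786-O and 7 in parental A498.

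On chromosome 8 the cluster from 43092830 to 43097026 held 5 parental 786-O and 6 parental A498 peaks and not one peak of either tagged list. Its neighbour from 43819037 to 43838734 held 5 and 4 tagged peaks and 6 and 8 parental peaks. The first of these was the only one of the 16 clusters without a tagged peak in either line.

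**Figure D2:**
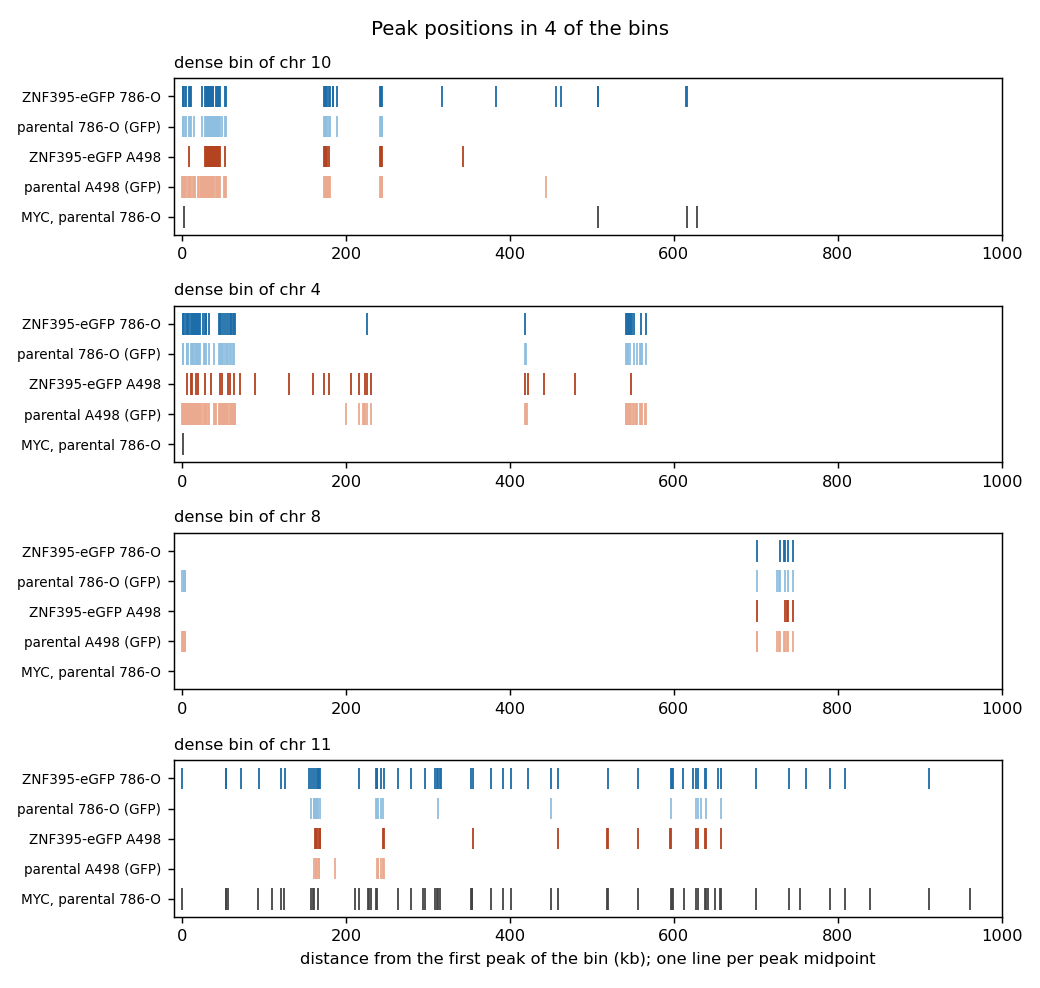
Midpoints of all peaks in 4 of the bins (1 line per peak, rows are lists), as distance in kb from the first peak of the bin. On chromosome 10 most peaks of the GFP lists crowd into the same short stretches. On chromosome 4 the 786-O lists and parental A498 mostly do so, while tagged A498 is more scattered. There 12 of the 28 tagged A498 peaks overlap no parental peak of either line. On chromosome 8 the first cluster has parental peaks only. On chromosome 11 tagged 786-O and MYC peaks spread over the bin.

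Spacing shows how crowded these stretches are. In the MYC-poor bins, neighbouring peaks of the same list lay a median of 1.34 kb apart in tagged 786-O, 1.88 kb in tagged A498, 1.06 kb in parental 786-O and 0.979 kb in parental A498. Outside the dense bins the medians were 44.1, 137, 271 and 283 kb in the same order. Inside the dense bins only neighbours within the same bin were counted, so gaps across a bin edge were left out. Outside them all neighbours on a chromosome were counted, however far apart. For every list, the medians inside and outside are thus not measured alike. The 7 gaps between MYC peaks in the MYC-poor bins had a median of 63.8 kb, against 37.3 kb in the rest of the MYC list. In the MYC-rich bins the GFP lists were spaced more widely, at 7.44 and 13.7 kb in the tagged and 4.92 and 7.05 kb in the parental lists, 786-O before A498. For the parental lists these values follow from the choice of the bins.

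The widths differed most between the places in tagged 786-O. There the median was 238 bp in the MYC-poor bins (quartiles 182 and 394 bp), against 395 bp (237 and 707 bp) in the rest of that list. In tagged A498 the medians were 253 bp in those bins and 245 bp elsewhere. Parental peaks had 173 bp against 192 bp in 786-O, and 172 bp against 157 bp in A498.

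The files also show where the bins lie relative to long stretches without any peak. Of the 11 bins on assembled autosomes, 7 border a stretch of at least 2.50 Mb in which none of the 5 lists has a peak. Among the 2540 autosomal bins with a peak, 104 do so. The stretch beside the bin was 11.1 Mb long on chromosome 16, 3.34 Mb on chromosome 2 at 92 Mb, 3.22 Mb on chromosome 10, 3.20 Mb on chromosome 18, 3.05 Mb on chromosome 4 and 3.00 Mb on chromosomes 8 and 17. The bins of chromosome 2 at 89 and 133 Mb and both MYC-rich bins had no such neighbour. Why a stretch has no peak is not recorded in the files, and gaps of the assembly were not analysed here.

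The bins directly before and after the dense ones held 0 to 5 parental 786-O and 0 to 2 parental A498 peaks each. The exception was the bin after that of chromosome 6, with 11 and 6. The dense bins were chosen for their own high counts, and 7 of them border a long stretch without a peak, so low counts beside them are favoured. Contig gl000199 has no neighbouring bin and was counted as 0.

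The same sites were called in several libraries. When overlapping peaks of the 4 GFP lists were joined, the MYC-poor bins held 435 sites, of which 118 (27.1%, 95% interval 23.0 to 31.6) were called in all 4 lists. Over all 24658 GFP sites of the series 1.61% were called in all 4, and outside the dense bins the share was 1.12% (0.995 to 1.27). Since the bins were chosen for peaks of both parental lists, sites with both are favoured here. Over all dense bins, 2 of the 127 sites called in all 4 lists (1.57%) overlapped a MYC peak, and outside them 149 of 271 (55.0%) did. Both of the 2 were among the 9 such sites of the MYC-rich bins. The absence of MYC at the 118 sites is favoured by how the MYC-poor bins were set apart, where 10 of all 435 sites overlapped a MYC peak. Among the other sites of the MYC-poor bins, 94 were called in parental A498 alone, 71 in all GFP lists but tagged A498, 40 in tagged A498 alone, 37 in both parental lists alone, 22 in tagged 786-O alone and 1 in parental 786-O alone.

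Of the parental 786-O peaks in the dense bins, 264 of 292 overlapped a parental A498 peak (90.4%, 86.4 to 93.5), against 21.6% of the whole list and 15.1% (13.8 to 16.4) outside the bins. In the MYC-poor bins this was 246 of 248, and in the MYC-rich bins 18 of 44. In the other direction, 255 of 404 parental A498 peaks in the dense bins overlapped a parental 786-O peak (63.1%, 58.2 to 67.8), against 46.9% of the whole list and 41.2% (38.4 to 44.1) outside. Nearly every parental 786-O peak of the MYC-poor bins was therefore also an A498 peak, and the A498 list had further peaks beside them. Both lists entered the choice of the bins, so these shares are a description.

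Tagged peaks in the dense bins mostly lay on background sites of their own line. In 786-O, 232 of 362 tagged peaks overlapped a parental 786-O peak (64.1%, 58.9 to 69.0), against 12.2% of the whole tagged list and 11.2% (10.8 to 11.7) outside. In A498, 163 of 232 tagged peaks overlapped a parental A498 peak (70.3%, 63.9 to 76.1), against 6.93% of the whole list and 4.97% (4.49 to 5.49) outside. The MYC-poor bins alone gave 77.4% (71.7 to 82.4) in 786-O and 77.2% (70.7 to 82.8) in A498. Tagged 786-O peaks of the MYC-poor bins overlapped a parental A498 peak still more often, in 224 of 252 cases (88.9%, 84.3 to 92.5), against 3.93% of the whole list, while 131 of 197 tagged A498 peaks overlapped a parental 786-O peak (66.5%, 59.4 to 73.0), against 15.4% of the whole list. In the MYC-rich bins the shares at the parental list of the same line were 33.6% (24.9 to 43.3) and 31.4% (16.9 to 49.3). The MYC-rich bins held 44 parental 786-O and 29 parental A498 peaks, against 248 and 375 in the MYC-poor bins. All bins were chosen for many parental peaks, which favours these overlaps, and were divided after the counts had been seen. These shares are therefore a description.

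The same was seen within the upper and the lower 50% of each tagged list by score. This is a coarse match of score, since the median tagged A498 peak of the MYC-poor bins stood at the upper 11.1% of its list. Among tagged 786-O peaks in the upper 50% of their list by score, 90.1% (84.9 to 93.9) of those in MYC-poor bins and 17.7% (17.0 to 18.5) of those outside the dense bins lay at a parental peak. In the lower 50% the shares were 37.7% (25.6 to 51.0) and 4.81% (4.39 to 5.25). For tagged A498 they were 83.1% against 8.50% in the upper 50%, and 45.2% against 1.57% in the lower 50%. The density of parental peaks, by which the bins were chosen, differs between the places compared.

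Bins differed in this share. In 786-O it was 100.0% on chromosome 17 (8 of 8 tagged peaks), 93.3% on chromosome 2 at 92 Mb (28 of 30), 80.0% on chromosome 10 (40 of 50) and 48.0% on chromosome 2 at 133 Mb (12 of 25). In A498 it was 100.0% on chromosomes 8 and 18, 96.9% on chromosome 10 (31 of 32), 57.1% on chromosome 4 (16 of 28), 55.0% on contig gl000199 (11 of 20) and 33.3% on chromosome 2 at 89 Mb (2 of 6). With counts this small the single bins carry wide counting errors.

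In the other direction the dense bins stood out less. Of the parental 786-O peaks there, 243 of 292 were found again in tagged 786-O (83.2%, 78.4 to 87.3), against 76.2% of the whole list and 75.5% (74.0 to 77.0) outside. For parental A498 it was 162 of 404 in tagged A498 (40.1%, 35.3 to 45.1), against 35.1% of the whole list and 33.4% (30.7 to 36.2) outside. These intervals overlap only slightly, and the difference was not tested. Among parental 786-O peaks in the upper 50% by score, the dense bins and the rest of the list had 83.5% (78.4 to 87.9) and 83.1% (81.0 to 85.0). These shares are close, and their difference was not tested either.

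Between the lines, 173 of the 232 tagged A498 peaks in the dense bins overlapped a tagged 786-O peak (74.6%, 68.5 to 80.0), against 56.6% of the whole list and 56.0% (54.9 to 57.2) outside. Conversely 168 of 362 tagged 786-O peaks overlapped a tagged A498 peak (46.4%, 41.2 to 51.7), against 20.5% of the whole list and 20.0% (19.4 to 20.5) outside. In the MYC-poor bins 71.1% of tagged A498 peaks were shared with tagged 786-O. Within the upper 50% of A498 scores the MYC-poor bins gave 75.3% (68.0 to 81.7) and the rest of the list also 75.3% (73.9 to 76.7). The upper 50% is a coarse match of score. The median tagged A498 peak of the MYC-poor bins stood at the upper 11.1% of its list. Outside the dense bins, sharing was lower in the lower 50% by score, at 37.5%. The equal shares therefore do not compare peaks of like score, and a difference at like score was not tested.

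GFP peaks of the dense bins overlapped MYC peaks less often than those of the whole lists over all 12 bins, and the bins differed widely. In all, 60 of 362 tagged 786-O peaks overlapped a MYC peak (16.6%, 12.9 to 20.8), against 60.6% of the whole list and 61.5% (60.8 to 62.1) outside. In the MYC-poor bins it was 10 of 252 (3.97%, 1.92 to 7.18), and 9 of these 10 lay outside the clusters. Of the tagged A498 peaks in the dense bins 18 of 232 did so (7.76%, 4.66 to 12.0), against 46.8% of the whole list. Parental 786-O peaks of the dense bins overlapped MYC in 17 of 292 cases (5.82%, 3.43 to 9.16), against 60.5% of the whole list, and just 1 of these lay in a MYC-poor bin. For parental A498 it was 5 of 404 (1.24%, 0.403 to 2.86), against 15.9% of the whole list. In the MYC-rich bins the shares at MYC were 45.5% of tagged 786-O, 42.9% of tagged A498, 36.4% of parental 786-O and 13.8% of parental A498 peaks. On chromosome 11 alone, 42 of 57 tagged 786-O peaks (73.7%) and 13 of 20 tagged A498 peaks lay at a MYC peak, above the shares of the whole lists. On chromosome 6 it was 8 of 53 (15.1%) and 2 of 15 (13.3%), below them. The MYC-poor bins were set apart by their few MYC peaks, so only the values for all 12 bins are free of that division. The parental 786-O and MYC lists share their control, and their overlap is a description.

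**Figure D3:**
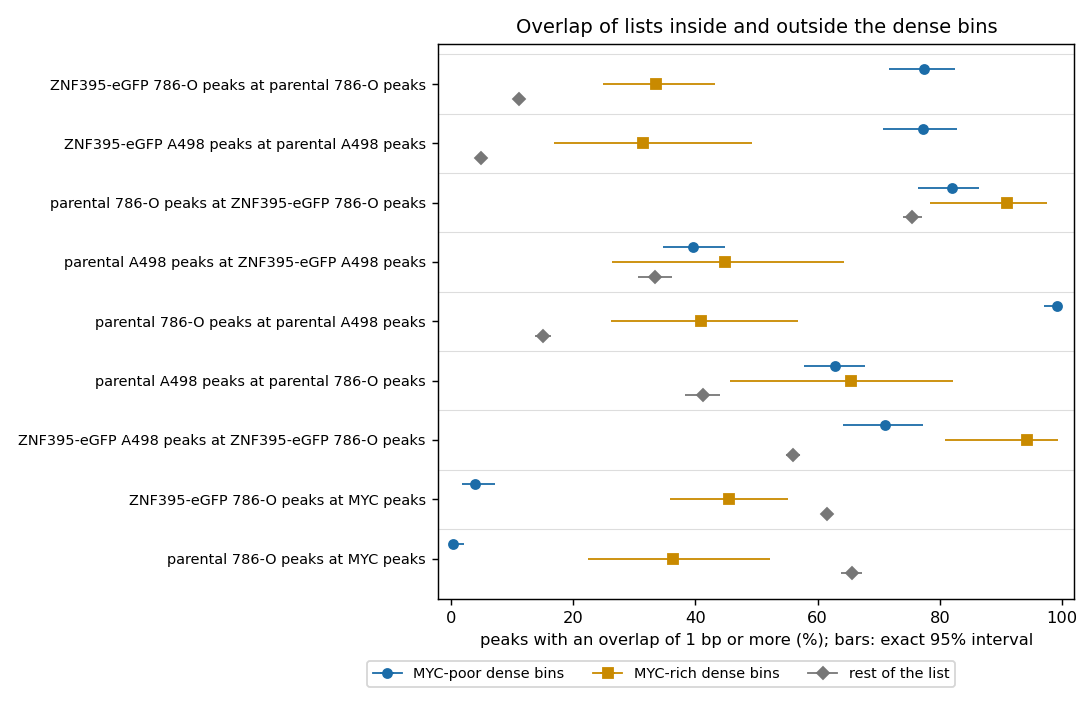
Share of peaks (x axis, %) that overlap a peak of another list by 1 bp or more, in the MYC-poor bins (circles), the MYC-rich bins (squares) and the rest of the list (diamonds), with exact 95% binomial intervals. Tagged peaks lie at parental peaks in 77.4% and 77.2% of cases in the MYC-poor bins, and parental 786-O peaks lie at MYC peaks in 0.403% of cases there.

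Tagged peaks without any background partner were few in the MYC-poor bins. In 786-O, 27 of the 252 tagged peaks overlapped neither parental list (10.7%, 7.18 to 15.2), against 87.0% of the whole list. In A498 it was 45 of 197 (22.8%, 17.2 to 29.3), against 83.3% of the whole list. The bins were chosen for many parental peaks of both lines, which by itself lowers these shares. The 27 lay a median of 65.5 kb from the nearest parental peak of either line, and 5 of them had a tagged A498 peak. Of the 45, which lay a median of 24.0 kb away, 5 had a tagged 786-O peak. By bin, 10 of the 27 were on chromosome 10 and 6 on chromosome 16, and 12 of the 45 were on chromosome 4, 10 on chromosome 16 and 9 on contig gl000199.

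In the MYC-rich bins, 67 of 110 tagged 786-O peaks overlapped neither parental list (60.9%, 51.1 to 70.1), below the 87.0% of the whole list. Of these, 39 were on chromosome 11 and 28 on chromosome 6. On chromosome 11, 30 of the 39 overlapped a MYC peak, and on chromosome 6 it was 4 of 28, against 60.6% of the whole tagged 786-O list. In tagged A498 it was 15 of 35 peaks (42.9%, 26.3 to 60.6), below the 83.3% of the whole list. Of these 15, 13 had a tagged 786-O peak, against 56.6% of the whole tagged A498 list.

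GFP peaks of the MYC-poor bins ranked high in their lists, and the 12 MYC peaks there did not. The score is the authors' value for each peak and was taken for a −log10 value. Its size is compared here only within a list, and between lists only the order of scores is used. The median score was 21.4 in the MYC-poor bins and 13.0 outside the dense bins for tagged 786-O, and 14.3 against 5.63 for tagged A498. For the parental lists it was 26.5 against 6.25 in 786-O, and 27.1 against 10.5 in A498. Ranked within the own list, the median members stood at the upper 32.2% in tagged 786-O, 11.1% in tagged A498, 9.02% in parental 786-O and 27.3% in parental A498. The 12 MYC peaks had a median rank of 51.8% of the MYC list. In the MYC-rich bins the medians of the GFP lists were at 48.9%, 45.7%, 59.7% and 72.6% in the same order, near or below the middle of each list. Single MYC-poor bins differed. On chromosome 2 the median rank was 53.1% in tagged 786-O at 133 Mb and 57.6% in tagged A498 at 89 Mb. All other medians of GFP lists in MYC-poor bins were in the upper 50%.

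The very top of the lists was elsewhere. None of the 10 highest peaks lay in a MYC-poor bin in any of the 5 lists. Among the 100 highest, the MYC-poor bins held none of tagged 786-O, 14 of tagged A498, 33 of parental 786-O and 42 of parental A498. Among the 300 highest of tagged 786-O they again held none, and among the 300 highest of tagged A498 they held 55. Peaks of these bins were thus among the 100 highest of tagged A498 and not among the 300 highest of tagged 786-O.

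**Figure D4:**
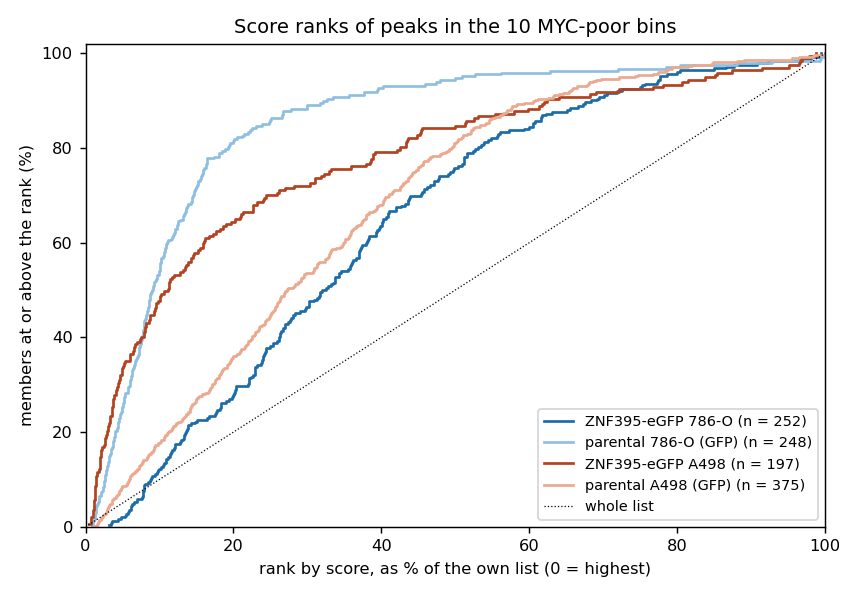
Cumulative share of the peaks of the 10 MYC-poor bins (y axis, %) by their rank in the own list (x axis, % of the list, 0 is the highest score), 1 line per GFP list, with the whole list as the dotted diagonal. The lines run above the diagonal over most of the range. At the very highest ranks all lines start below it, that of tagged A498 for the shortest stretch. The medians are 32.2%, 11.1%, 9.02% and 27.3% for tagged 786-O, tagged A498, parental 786-O and parental A498.

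Of the sites called in all 4 GFP lists, the one with the smallest summed rank lay on contig gl000199 at 72666 to 73208, with rank 692 in tagged 786-O, 58 in tagged A498, 36 in parental 786-O and 26 in parental A498. A second one on the contig, at 44920 to 45088, had ranks of 717, 36, 29 and 43 in the same order. It was the highest peak of the dense bins in tagged A498 (score 76.4) and in parental 786-O (score 78.5). The joined sites are 543 and 169 bp long.

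On chromosome 2 the site from 92312561 to 92313110 had ranks of 966, 97, 48 and 51 and that from 92291384 to 92291586 had 1245, 62, 62 and 60, again with tagged 786-O, tagged A498, parental 786-O and parental A498 in order. The site of chromosome 10 from 42392633 to 42392821 had 1088, 142, 47 and 49. Tagged 786-O gave the largest rank number at all 5 sites, in the longest of the 4 lists, and none had a MYC peak. The highest parental A498 peak of the bins, on chromosome 8 from 43822404 to 43822560 (score 87.2, rank 19), was also in parental 786-O with rank 51 and in tagged 786-O with rank 2296, and had no tagged A498 peak. Further parental leaders were on contig gl000199 at 44219 to 44374 (rank 33 in parental 786-O) and at 165670 to 165805 (rank 25 in parental A498).

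The leading tagged 786-O peaks of the bins were of another kind, and all 3 were in the MYC-rich bin of chromosome 11. The peak from 65655782 to 65656755 had a score of 258 and rank 5 in tagged 786-O, with rank 45 in tagged A498, 12756 in MYC and 2850 in parental 786-O. The one from 65624430 to 65626260 had rank 42 in tagged 786-O and 47 in tagged A498, against 1185 in parental 786-O and 5852 in MYC. The third, from 65547429 to 65548928, had ranks of 101 and 173 in the tagged lists and no parental peak. None of the 3 had a parental A498 peak. The parental 786-O list has 3361 peaks, so the parental peak under the first stood low in it and that under the second in its upper part.

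The first and second of the leading MYC peaks of the bins lay outside the clusters. The first was on chromosome 16 from 46917450 to 46918724 (score 291, rank 35) and the next on chromosome 10 from 42970643 to 42971645 (score 178, rank 268). Both had a tagged 786-O peak, with ranks 1228 and 2718, and no peak in the other GFP lists. The third was inside a cluster of chromosome 11, from 65666590 to 65667432 (score 104, rank 976), with tagged peaks of rank 6102 in 786-O and 3504 in A498.

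Scores of different libraries ran closely together at the shared sites of the MYC-poor bins. Between tagged and parental 786-O, Spearman's rho was 0.81 over 195 tagged peaks at parental peaks in these bins, and 0.13 over 2206 such peaks outside the dense bins. Between tagged and parental A498 it was 0.68 over 152 peaks, against 0.42 over 372. Parental A498 and parental 786-O gave 0.85 over 236 peaks, against 0.62 over 478. Tagged A498 and tagged 786-O gave 0.77 over 140 peaks, against 0.43 over 4195. These are descriptions across peaks, which lie in a few clusters, share 2 libraries per pair and are not independent. Tagged and parental libraries of a line were called against different control libraries. At these sites, peaks that scored high without a tag mostly scored high with it.

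**Figure D5:**
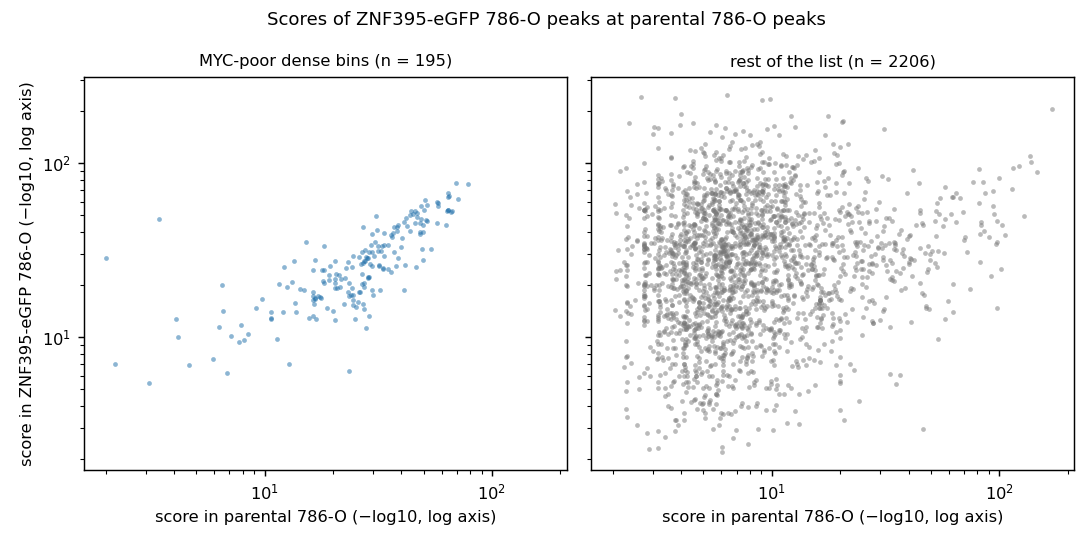
Score of tagged 786-O peaks (y axis, −log10, log axis) against the score of the overlapping parental 786-O peak (x axis, −log10, log axis), 1 point per tagged peak, in the MYC-poor bins (left, 195 peaks) and outside the dense bins (right, 2206 peaks). The left points follow a line (rho 0.81) and the right ones form a cloud (rho 0.13).

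The number of peaks per bin went together in some pairs of lists and less in others. Over the 12 bins Spearman's rho was 0.88 between tagged A498 and parental 786-O, 0.77 between tagged and parental 786-O, 0.73 between tagged and parental A498 and 0.32 between tagged 786-O and parental A498. It was 0.82 between tagged 786-O and MYC and -0.02 between parental A498 and MYC. With 12 bins, 2 of which are MYC-rich, these are descriptions only.

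Finally, the bins had a different weight in the overlaps of whole lists. They supplied 232 of the 2438 tagged 786-O peaks at parental sites (9.52%) and 163 of the 535 tagged A498 peaks at parental sites (30.5%). They also supplied 255 of the 733 parental A498 peaks at parental 786-O sites (34.8%). Without the bins, 11.2% of tagged 786-O and 4.97% of tagged A498 peaks lay at parental peaks of their line, against 12.2% and 6.93% with them. Parental A498 peaks lay at MYC peaks in 21.0% of cases without the bins and 15.9% with them, and parental 786-O peaks in 65.7% and 60.5%.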

How the data were processed

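Peak lists of 5 ChIP-seq libraries (1 per group) were analysed; 4 input samples entered only as the authors' controls. Per the labels' protocols, fixation was with 1% formaldehyde for 10 min, fragments were near 500 bp, each precipitation took 20 µg of antibody, and sequencing aimed at an average of 30 to 50 M reads. The submitters' processing notes name BWA, MACS2 and the hg19 build, without versions; their settings were likewise not given in the sources used here. As to scale, the authors' deposited score was taken for −log10 of a p-value or q-value, because no list goes below 2.00; which of these it is, is not stated. The depth behind single peaks is unknown.

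Bins were assigned by the deposited start of a peak, and positions are printed 1-based. Overlap means at least 1 bp. Shares carry exact (Clopper-Pearson) 95% intervals, which treat peaks as independent and cover counting error only. Equal scores were ranked by width. Every bin was named, as were the 3 highest peaks per list and the 5 sites of smallest summed rank in all 4 GFP lists. The bins, clusters, MYC-poor and MYC-rich groups and comparisons were chosen with earlier results of these data known. Overlap rules were tested on simulated data. The tools were scipy 1.17.1, numpy 2.4.6, matplotlib 3.10.9 and pandas 2.3.3 under Python 3.11.15. Sequences, repeats and genes at the peaks need hg19 and were not analysed here.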

Additional observations from a re-analysis of the deposited data

How the results depend on the processing

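Of 81 values of 12 results under 8 alternatives, 41 stayed within the counting interval of the reported value (the number of bins within 1.5 times) and 40 did not. Moving the bins by 500 kb gave 13 bins and moved none of the results. With a minimum of 20 parental peaks, 5 bins were left; they held 0.953% of tagged 786-O, 1.90% of tagged A498, 0.0396% of MYC, 5.56% of parental 786-O and 18.2% of parental A498 peaks. Of their peaks, 79.1% of tagged 786-O and 76.2% of tagged A498 lay at parental peaks of the line, 98.9% of parental 786-O at parental A498 peaks and 4.19% of tagged 786-O at MYC peaks. When only the upper 50% by score of each list was kept, the bins held 2.47% of tagged 786-O, 4.90% of tagged A498, 15.2% of parental 786-O and 39.8% of parental A498. The overlaps then changed to 74.1% for tagged at parental 786-O, 68.3% for tagged A498 at tagged 786-O, 69.1% for parental A498 at parental 786-O and 9.72% for tagged 786-O at MYC peaks. Without the fullest bin (chromosome 4) the shares were 1.56% of tagged 786-O, 7.26% of parental 786-O and 20.0% of parental A498, and on assembled autosomes only 23.4% of parental A498. A reciprocal overlap of 50% lowered the overlaps to 52.8% for tagged at parental 786-O, 54.7% for tagged at parental A498, 78.1% for parental 786-O at parental A498, 56.4% for parental A498 at parental 786-O, 9.94% for tagged 786-O at MYC and 54.3% for tagged A498 at tagged 786-O. Midpoints within 200 bp gave 60.8% for tagged at parental A498, 84.6% for parental 786-O at parental A498, 11.6% for tagged 786-O at MYC and 62.9% for tagged A498 at tagged 786-O. Leaving out the 2 MYC-rich bins, an alternative chosen after seeing the data, gave shares of 1.26% of tagged 786-O, 2.55% of tagged A498, 0.0594% of MYC and 7.38% of parental 786-O, and overlaps of 77.4% and 77.2% for tagged at parental peaks in 786-O and A498, 99.2% for parental 786-O at parental A498 and 3.97% for tagged 786-O at MYC. A reciprocal overlap of 50% can only lower the overlaps, by construction. Keeping fewer of the bins can likewise only lower the share of a list inside them. Causes of the other changes were not tested. No paired analysis was possible because each group is 1 library. Without read counts per peak, the number of peaks limits the precision.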
